A study of Homo sapiens with 6 samples.

Results

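TGFB1, TGFB2, TGFB3, TGFBR1, TGFBR2, TGFBR3, LTBP1, INHBA, SMAD7 and SKIL form the core of the TGF-beta signalling system, from ligands to feedback inhibitors. They were taken by Entrez ID from a table of 28395 gene IDs, which held a row for all 10 genes. Each was read in all 6 libraries of a comparison of TC28a2 cells carrying an FAP overexpression vector with TC28a2 cells carrying a control vector. TC28a2 is an immortalised human chondrocyte line, and FAP (fibroblast activation protein) is a cell-surface serine protease whose expression marks activated fibroblasts. Total RNA was taken 48 hours after transfection from 3 FAP and 3 control samples and sequenced by DRUG-seq, an RNA-seq format in which many barcoded samples are processed together. The labels name no strain, selection or sorting, no promoter of the vector, and no separate cultures behind the replicates, so the spread behind each p-value may be technical. All values come from bulk RNA, in which fewer expressing cells and less RNA per cell cannot be told apart.

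TGF-beta is secreted in a latent form. The growth factor stays bound to its own propeptide, and that complex is tethered to the extracellular matrix by latent TGF-beta binding proteins such as LTBP1 until integrins, proteases or thrombospondin release it. Free ligand joins the type II receptor TGFBR2 and the type I receptor TGFBR1, with TGFBR3 (betaglycan) as a co-receptor that presents ligand, TGF-beta 2 above all. TGFBR1 phosphorylates SMAD2 and SMAD3, which enter the nucleus with SMAD4 and raise, among other genes, SMAD7 and SKIL. SMAD7 blocks the receptors and SKIL (SnoN) represses SMAD complexes, so both close a negative feedback loop. INHBA encodes the subunit of activin A, a relative of TGF-beta that uses its own receptors but the same SMAD2 and SMAD3. In cartilage TGF-beta is known for supporting chondrocyte matrix production.

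The starts of 5 of the genes are shown because the text below turns on their levels: TGFB1 and INHBA, the ligand genes whose FAP and control libraries did not overlap and which differed in opposite directions, TGFB2, a ligand gene at nearly the same level in both groups, and the feedback genes SMAD7 and SKIL. Each window holds 300 bases, 250 before and 50 after the annotated start, read 5′ to 3′ on the gene's own strand, from RefSeq on GRCh38.p14. The windows are TGFB1, chr19:41353873-41354172, minus strand, TGFB2, chr1:218345086-218345385, plus strand, INHBA, chr7:41703041-41703340, minus strand, SMAD7, chr18:48950916-48951215, minus strand, and SKIL, chr3:170357465-170357764, plus strand. Capitals mark matches on either strand to the GC box core GGGCGG, the TATA box core TATAAA and the SMAD half-site CAGAC.
TGFB1: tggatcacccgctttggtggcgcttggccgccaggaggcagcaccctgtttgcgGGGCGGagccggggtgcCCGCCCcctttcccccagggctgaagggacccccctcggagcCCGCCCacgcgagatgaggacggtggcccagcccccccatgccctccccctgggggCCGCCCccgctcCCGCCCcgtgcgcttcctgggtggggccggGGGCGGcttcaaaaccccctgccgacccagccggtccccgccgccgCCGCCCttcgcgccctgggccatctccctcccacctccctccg
TGFB2: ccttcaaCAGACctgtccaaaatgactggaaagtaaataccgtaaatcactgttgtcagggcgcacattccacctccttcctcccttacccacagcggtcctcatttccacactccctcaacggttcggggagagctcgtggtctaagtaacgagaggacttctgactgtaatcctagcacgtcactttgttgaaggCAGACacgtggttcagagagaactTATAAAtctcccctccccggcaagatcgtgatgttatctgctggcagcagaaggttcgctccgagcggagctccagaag
INHBA: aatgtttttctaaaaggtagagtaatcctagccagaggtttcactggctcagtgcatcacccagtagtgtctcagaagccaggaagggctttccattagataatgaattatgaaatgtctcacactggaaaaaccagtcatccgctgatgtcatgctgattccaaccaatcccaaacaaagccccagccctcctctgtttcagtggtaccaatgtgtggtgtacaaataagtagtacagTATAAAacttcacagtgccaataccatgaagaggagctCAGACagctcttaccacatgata
SMAD7: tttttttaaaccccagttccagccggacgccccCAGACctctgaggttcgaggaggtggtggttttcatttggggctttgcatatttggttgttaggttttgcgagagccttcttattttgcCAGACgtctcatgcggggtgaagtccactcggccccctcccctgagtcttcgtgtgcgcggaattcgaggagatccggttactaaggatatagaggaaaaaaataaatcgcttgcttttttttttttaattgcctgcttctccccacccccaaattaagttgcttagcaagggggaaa
SKIL: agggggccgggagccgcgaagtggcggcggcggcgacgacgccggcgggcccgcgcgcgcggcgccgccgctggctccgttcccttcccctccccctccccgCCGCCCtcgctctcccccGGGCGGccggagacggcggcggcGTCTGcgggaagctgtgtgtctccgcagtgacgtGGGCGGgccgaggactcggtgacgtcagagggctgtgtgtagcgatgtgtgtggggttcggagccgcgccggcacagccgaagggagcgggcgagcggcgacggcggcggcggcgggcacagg

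The TGFB1 window was 77.3% G and C, held 7 GC box matches and held neither the TATA letters nor the SMAD half-site. By contrast, the TGFB2 and INHBA windows, at 51.7% and 43.3% G and C, each held 1 TATA match and no GC box match. The SMAD7 window held 2 SMAD half-sites, the TGFB2 window 2, and the SKIL and INHBA windows 1 each. The SKIL window was 79.0% G and C, with 3 GC box matches. Among 35116 windows of the same length in the table, 45% held the GC box letters, 11.5% the TATA letters and 45.3% the SMAD half-site, so the last is common by its letters alone. A match or its absence describes the letters of a window and no more. The INHBA window is the only one in the table for that gene and does not lie at its outermost annotated start. For SMAD7, 3 windows were available, and only the one at its outermost annotated start is shown and described.

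Library totals ran from 6275038 to 13839743 gene counts in FAP libraries and from 5736056 to 12446373 in controls. FAP itself had 1396, 3182 and 4733 counts in FAP replicates 1, 2 and 3, against 0, 11 and 5 in control replicates 1, 2 and 3, so each library matched its label. Of 17 chondrocyte marker genes, 16 averaged under 1 CPM (counts scaled to one common library total, with TMM, a correction for library composition), SOX9, the main chondrocyte transcription factor, being the exception. The summed level of these markers was 35.2 to 45.7 CPM in FAP libraries and 27.4 to 36.5 CPM in controls. Fibroblast markers summed to 704 to 856 CPM in FAP libraries and to 540 to 794 CPM in controls, and 3 endothelial genes to 1.84 to 2.55 CPM in FAP libraries and 0.712 to 0.983 CPM in controls, the endothelial gene CDH5 being at 0 counts throughout. Epithelial markers, carried by KRT8 and KRT18, summed to 1408 to 1540 CPM in FAP libraries and 1313 to 1508 CPM in controls. Haematopoietic markers summed to 14.2 to 16.9 CPM in FAP libraries and 15.1 to 17.5 CPM in controls. No marker was called, and the part of these cell types in the results was not tested. FAP replicate 3 was unlike the other FAP libraries, with a chi-square per degree of freedom of 16.2 and 15.5 over genes. The same measure was 5.74 between FAP replicates 1 and 2 and 5.21 to 6.78 between controls. By Spearman correlation of log2 CPM, FAP replicate 3 was as close to FAP replicate 2 (0.989) as FAP replicate 1 was (0.989), and farther from FAP replicate 1 (0.982). Results are therefore also given without FAP replicate 3 where that ends or makes a call. Replicate 1 held the fewest counts in each group.

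The comparison asks whether raised FAP expression alters the transcripts of the TGF-beta system in this chondrocyte line. None of the 10 genes was called in either direction by edgeR's quasi-likelihood test at an adjusted p under 0.05, where 0.224% of all 13373 tested genes were called (13 higher, 17 lower). At an unadjusted p under 0.05, 3 of the 10 passed, 2 higher and 1 lower, against 9.91% of all tested genes (4.61% higher, 5.3% lower). DESeq2, which called 0.613% of all tested genes, called 1 of the 10, TGFB1, and limma-voom called 0. The FAP and control libraries did not overlap for 4 genes: TGFB1, SMAD7 and SKIL lay higher in all 3 FAP libraries and INHBA lay lower, against 16% of all tested genes separated in either direction (7.96% with FAP higher, 7.99% with FAP lower). The remaining 6 genes overlapped between groups. All 10 passed the low-count filter, with 15 to 2281 counts per library. The median log2 fold change of the 10 was 0.07, beside 0.0031 over all tested genes.

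**Figure D1:**
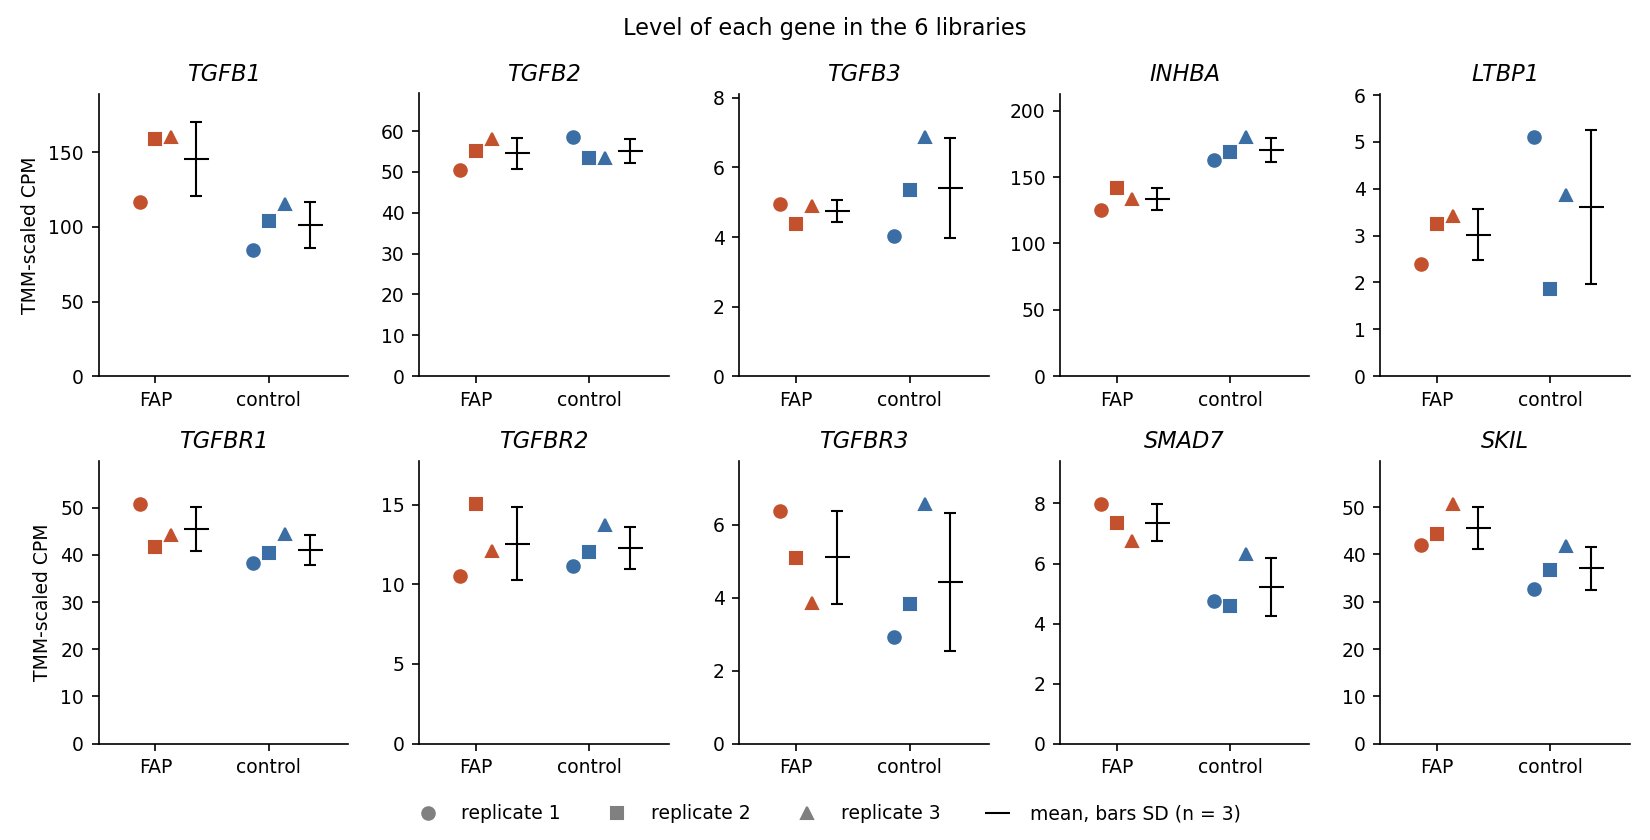
Level of each of the 10 genes in TMM-scaled CPM (y axis, from 0), for the FAP vector libraries (left, orange) and the control vector libraries (right, blue). Symbols are replicates 1, 2 and 3, and the black bars give the mean and SD of 3 libraries. TGFB1, SMAD7 and SKIL lay higher in every FAP library than in any control, INHBA lay lower, and the other 6 genes overlapped.

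Among the ligands, TGFB1 had the largest difference of the 10 genes. TGFB1 (Entrez 7040, GRCh38 chromosome 19, 41330323 to 41353922) encodes TGF-beta 1, the most widely expressed of the TGF-beta ligands. It stood at 117, 159 and 160 CPM in FAP replicates 1, 2 and 3, against 84.8, 104 and 115 CPM in control replicates 1, 2 and 3. The groups were separated only narrowly, since FAP replicate 1 lay just above control replicate 3. Means were 145 ± 24.7 CPM in FAP libraries and 101 ± 15.5 CPM in controls (SD, n = 3 each). The log2 fold change was 0.52 (SE 0.13), an FAP to control ratio of 1.43, with an unadjusted 95% interval of 0.25 to 0.78. Its adjusted p over all genes was 0.116 by edgeR, so the difference did not pass, although it ranked 64 among the 13373 p-values.

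Whether TGFB1 passed depended on the library set and the tool. Leaving out FAP replicate 1 made it pass in edgeR (0.65, adjusted p = 0.0230), as did leaving out FAP replicate 3 (0.44, with an adjusted p of 0.0240). The fit without FAP replicate 1 called 0.274% of all tested genes, and the fit without FAP replicate 3 called 1.86%. Leaving out FAP replicate 2 or any control gave 0.41 to 0.62, with edgeR's adjusted p between 0.240 and 0.591. DESeq2 called it at an adjusted p of 0.0405, and so did the edgeR fit with no low-count filter (adjusted p = 6.77e-04), which called 0.718% of all tested genes. Within each group the smallest library had the lowest TGFB1 level: FAP replicate 1 held 6275038 counts and control replicate 1 held 5736056. With log2 library total as a covariate the log2 fold change was 0.42 (edgeR, adjusted p = 0.127), and with counts thinned to the smallest library it was 0.48 (edgeR, adjusted p = 0.141). FAP itself stood at 223, 225 and 351 CPM in FAP replicates 1, 2 and 3, beside TGFB1 levels of 117, 159 and 160 CPM. Whether TGFB1 followed the level of FAP was not tested.

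The other TGF-beta ligand genes did not separate the groups. TGFB2 (Entrez 7042, chromosome 1, 218345336 to 218444619), the isoform that depends most on betaglycan, stood at 50.4, 55.1 and 58.0 CPM in FAP libraries, against 58.6, 53.4 and 53.5 CPM in controls. Its group means, 54.5 ± 3.84 CPM in FAP libraries and 55.2 ± 2.98 CPM in controls, differed by less than the SD of either group. Its log2 fold change was -0.0088, with a 95% interval of -0.23 to 0.22 (edgeR, adjusted p = 0.988). The antisense gene TGFB2-AS1 overlaps the start of TGFB2, and stood at 1.46 CPM in FAP libraries and 2.01 CPM in controls. Since no strand setting is stated, reads in the stretch that such pairs share cannot be told apart. A noncoding gene, TGFB2-OT1, lies within TGFB2 near its end and stood at 0 CPM in both groups. How reads in that shared stretch were assigned is not stated. TGFB3 (Entrez 7043, chromosome 14, 75958097 to 75983011), the third isoform, was scarce: 4.95, 4.38 and 4.89 CPM in FAP libraries, against 4.02, 5.35 and 6.89 CPM in controls. FAP values lay within the range of the controls, and the interval of its log2 fold change, -0.80 to 0.32, was wide (edgeR, adjusted p = 0.810).

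TGFB1 made up a larger share of the summed level of the 3 isoforms in FAP libraries. The share was 67.8%, 72.7% and 71.8% in FAP replicates 1, 2 and 3, against 57.5%, 63.9% and 65.6% in control replicates 1, 2 and 3. TGFB2 held 29.3%, 25.3% and 25.98% in FAP libraries, against 39.8%, 32.8% and 30.4% in controls. The summed level ran from 172 to 223 CPM in FAP libraries and from 147 to 176 CPM in controls. The sums thus overlapped, while the TGFB1 and TGFB2 shares did not. The TGFB3 share overlapped, at 2.01% to 2.87% in FAP libraries and 2.73% to 3.92% in controls. The shares carry no test of their own.

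**Figure D2:**
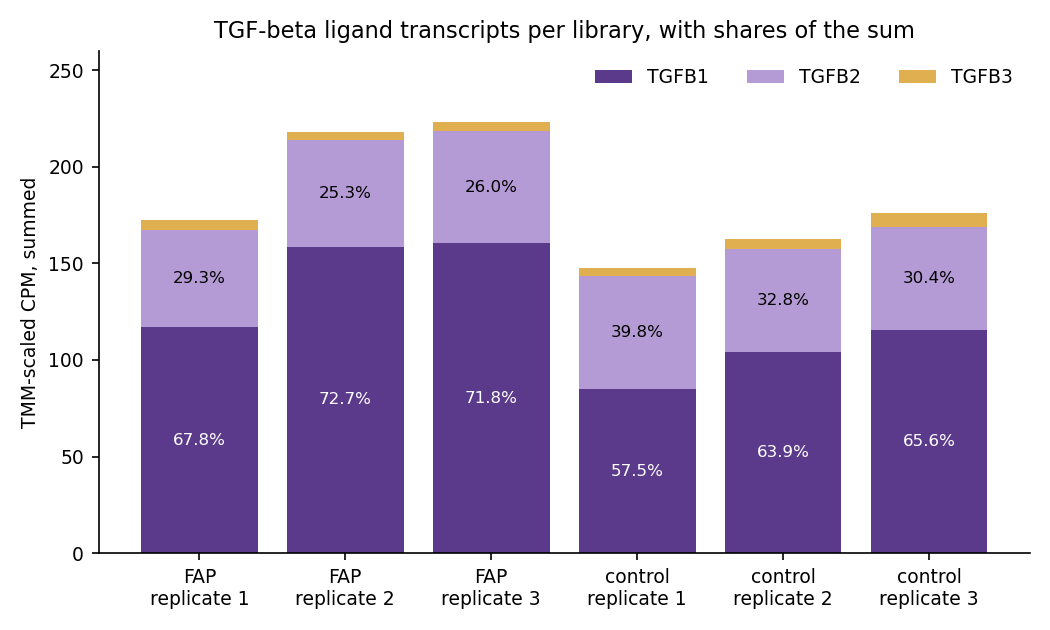
Summed level of TGFB1, TGFB2 and TGFB3 in TMM-scaled CPM (y axis, from 0) in each library, FAP libraries left and control libraries right, with the percentage that TGFB1 and TGFB2 made up of the sum. TGFB1 held 67.8% or more in FAP libraries and 65.6% or less in controls, while TGFB2 kept a similar height.

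INHBA was the ligand gene that lay lower in FAP libraries. INHBA (Entrez 3624, chromosome 7, 41685114 to 41705406) stood at 125, 142 and 134 CPM in FAP replicates 1, 2 and 3, against 163, 169 and 181 CPM in control replicates 1, 2 and 3. Every FAP value was below every control, with a gap between the groups that was wider than the spread within either. Means were 134 ± 8.12 CPM in FAP libraries and 171 ± 9.04 CPM in controls (SD, n = 3 each). The log2 fold change was -0.35 (SE 0.10, 95% interval -0.56 to -0.15), a ratio of 0.783, and the adjusted p over all genes was 0.189 by edgeR, so INHBA was not called. Without FAP replicate 3 it passed narrowly (-0.35, adjusted p = 0.0490). With any other library left out it lay between -0.40 and -0.31 and did not pass (edgeR, adjusted p from 0.312 to 0.606). A correction for transcript GC content and length gave -0.42 (edgeR, adjusted p = 0.0548). An antisense gene, INHBA-AS1, overlaps it and stood at 0.548 CPM in FAP libraries and 0.460 CPM in controls.

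Levels of the ligand genes relative to each other were set per kilobase of the longest annotated transcript. That scale is made for libraries whose reads cover whole transcripts, where longer transcripts yield more counts. On that scale TGFB1 stood at 52.5 CPM per kb in FAP libraries and 36.6 in controls, and INHBA at 22.02 and 28.1. TGFB2 followed at 10.8 CPM per kb in FAP libraries and 10.9 in controls, and TGFB3 at 1.75 and 2.00. TGFB1 was the highest of the 4 ligand genes per kilobase in both groups. In CPM not divided by length it was highest in FAP libraries, at 145 CPM beside 134 CPM for INHBA, but in controls INHBA was higher, at 171 CPM beside 101 CPM. The order of TGFB1 and INHBA in controls thus depended on the scale. Where a library method counts transcripts from their 3′ ends, as DRUG-seq does, levels depend less on length than the per-kilobase scale assumes. The order in CPM not divided by length is thus the safer one to read here.

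LTBP1, the latent binding protein among the 10 (Entrez 4052, chromosome 2, 32946953 to 33399509), was the scarcest. It stood at 2.39, 3.25 and 3.41 CPM in FAP libraries, against 5.11, 1.86 and 3.88 CPM in controls, with the FAP values inside the range of the controls. Its log2 fold change was -0.19, with a 95% interval of -0.95 to 0.57 that leaves differences of either sign (edgeR, adjusted p = 0.898). LTBP1 had 15 to 49 counts per library, and its controls differed widely among themselves.

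None of the receptor genes separated the groups. TGFBR1 (Entrez 7046, chromosome 9, 99103647 to 99154192), the type I receptor kinase, stood at 50.7, 41.6 and 44.2 CPM in FAP libraries, against 38.4, 40.3 and 44.5 CPM in controls. FAP replicate 1 was the highest library, and the other FAP libraries lay within the range of the controls. Its log2 fold change was 0.13 (SE 0.12, 95% interval -0.11 to 0.38, edgeR, adjusted p = 0.747). TGFBR2 (Entrez 7048, chromosome 3, 30606356 to 30694142), the type II receptor kinase that binds ligand first, stood at 10.5, 15.03 and 12.1 CPM in FAP libraries, against 11.1, 12.02 and 13.7 CPM in controls. FAP replicates 1 and 2 were the lowest and the highest of the 6. Its log2 fold change was 0.04 (95% interval -0.34 to 0.42, edgeR, adjusted p = 0.967).

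TGFBR3, betaglycan (Entrez 7049, chromosome 1, 91680343 to 91906002), varied more within groups than between them. It stood at 6.38, 5.08 and 3.85 CPM in FAP libraries, against 2.92, 3.82 and 6.57 CPM in controls. The highest and the lowest library were both controls. On the log2 scale the difference was 0.11 (95% interval -0.54 to 0.76, edgeR, adjusted p = 0.939), and it lay between -0.08 and 0.54 when single libraries were left out. Per kilobase of transcript, TGFBR1 was the highest of the receptors, at 6.99 CPM per kb in FAP libraries and 6.30 in controls. TGFBR2 stood at 2.72 and 2.66, and TGFBR3 at 0.790 and 0.687. The limit of the per-kilobase scale given for the ligands holds here too. In CPM not divided by length the order of TGFBR1, TGFBR2 and TGFBR3 was the same. Their means were 45.5, 12.5 and 5.11 CPM in FAP libraries and 41.05, 12.3 and 4.44 CPM in controls. TGFBR2 was the lower of the signalling pair in every library: its log2 ratio to TGFBR1, in CPM not divided by length, ran from -2.27 to -1.47 in FAP libraries and from -1.78 to -1.70 in controls.

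Both feedback genes lay higher in all FAP libraries, and neither passed the test. SMAD7 (Entrez 4092, chromosome 18, 48919853 to 48950965), the inhibitory SMAD that blocks TGFBR1, stood at 7.98, 7.34 and 6.74 CPM in FAP replicates 1, 2 and 3, against 4.75, 4.59 and 6.33 CPM in control replicates 1, 2 and 3. Control replicate 3 was close to the lowest FAP library, while the other controls were well below. On the log2 scale the difference was 0.46 (SE 0.24, 95% interval -0.036 to 0.96), a ratio of 1.38 (edgeR, adjusted p = 0.539). It rested on 26 to 104 counts per library and stayed between 0.37 and 0.65 with any single library left out (edgeR, adjusted p from 0.436 to 0.860).

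SKIL (Entrez 6498, chromosome 3, 170357715 to 170396849), which encodes the SMAD corepressor SnoN, stood at 42.0, 44.3 and 50.6 CPM in FAP replicates 1, 2 and 3, against 32.7, 36.7 and 41.7 CPM in control replicates 1, 2 and 3. The groups nearly touched, at FAP replicate 1 and control replicate 3. Means were 45.6 ± 4.47 CPM in FAP libraries and 37.0 ± 4.52 CPM in controls (SD, n = 3 each). The log2 fold change was 0.30 (SE 0.12, 95% interval 0.04 to 0.55), a ratio of 1.23 (edgeR, adjusted p = 0.433). It lay between 0.21 and 0.39 with any single library left out, and was 0.24 with library total as a covariate. With the correction for transcript GC content and length it was smallest, at 0.19 (edgeR, adjusted p = 0.606). In TGFB1, SMAD7 and SKIL alike, control replicate 3 was the control nearest to the FAP libraries.

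**Figure D3:**
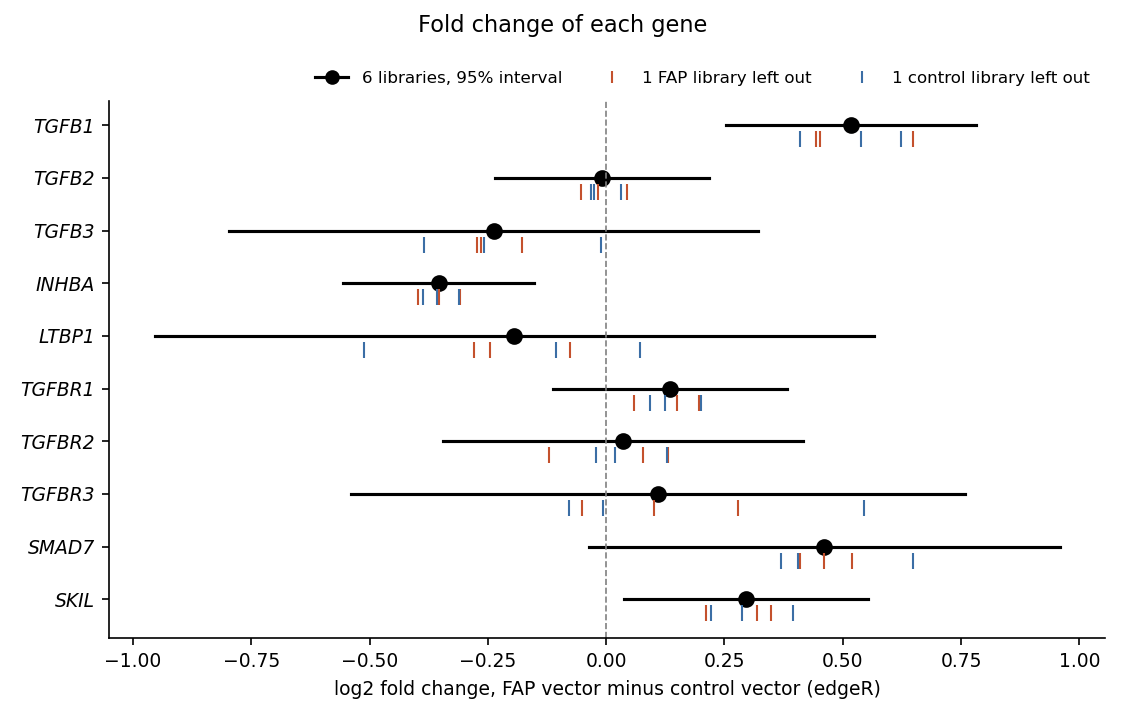
Log2 fold change of each of the 10 genes, FAP vector minus control vector, from edgeR (x axis). Black points and lines are the estimate from 6 libraries with its unadjusted 95% interval, and ticks are estimates with 1 FAP (orange) or 1 control (blue) library left out. Intervals of TGFB1, SKIL and INHBA did not reach 0, and the ticks of TGFBR2, TGFBR3, LTBP1 and TGFB2 lay on both sides of it.

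The wider pathway was described through 6 lists holding 142 genes besides the 10, of which 141 had a row in the table and 103 passed the low-count filter. None of the 103 was called by edgeR, against 0.224% of all tested genes, and DESeq2 called 1, SPHK1 (0.613% of all tested genes), while limma-voom called 0. At an unadjusted p under 0.05, 19 passed, 10 higher and 9 lower. That is 18.4% of the 103, beside 9.91% of all tested genes. The smallest adjusted p was 0.106. Without FAP replicate 3, edgeR called 6 of them, among them BGN (0.61) and CDKN2B (1.00) higher and ANGPTL4 (-0.81), FST (-0.53) and CCN2 (-0.46) lower, with adjusted p-values from 0.00341 to 0.0400. In that fit 1.86% of all tested genes were called. Without FAP replicate 1, BGN alone was called (0.65, adjusted p = 0.0472), with 0.274% of all tested genes called.

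Genes of latency and activation were described next. Of 26 listed, 22 were tested, 15 had positive log2 fold changes (68.2%, beside 50.7% of all tested genes), and the median was 0.14, beside 0.0031. None was called, 3 passed an unadjusted p under 0.05, all higher (4.61% of all tested genes were), and FAP and control libraries did not overlap for 3 higher genes and 1 lower gene (13.6% and 4.55% of the list, beside 7.96% and 7.99% of all tested genes). BGN, biglycan, a matrix proteoglycan that binds TGF-beta, stood at 63.4, 99.7 and 69.3 CPM in FAP libraries, against 47.1, 52.5 and 61.6 CPM in controls (log2 fold change 0.53, edgeR, adjusted p = 0.189). FAP replicate 2 stood out above the other FAP libraries.

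THBS1, thrombospondin 1, an activator of latent TGF-beta, stood at 247, 267 and 259 CPM in FAP libraries, against 182, 175 and 244 CPM in controls (0.36, edgeR, adjusted p = 0.281). Control replicate 3 again lay close to the FAP libraries. LTBP3, a further latent binding protein, stood at 17.7, 13.1 and 11.7 CPM in FAP libraries, against 8.22, 10.6 and 10.7 CPM in controls (0.48, edgeR, adjusted p = 0.416). FURIN, the convertase that cleaves the TGF-beta precursor, averaged 44.3 ± 5.59 CPM in FAP libraries and 40.5 ± 0.922 CPM in controls (0.12, edgeR, adjusted p = 0.781). ITGB6, a subunit of an epithelial integrin that activates TGF-beta, had no count in any library, which allows up to 0.548 CPM in the smallest of them, for counting error only.

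The SMADs that carry the signal differed little. Of 16 genes of SMADs and their partners, 14 were tested, with a median of 0.06, and none was called or passed an unadjusted p under 0.05. SMAD3, a main nuclear effector, stood at 88.7, 93.4 and 89.8 CPM in FAP libraries, against 69.2, 82.8 and 83.4 CPM in controls (0.20, edgeR, adjusted p = 0.531). It was the 1 gene of this list whose groups did not overlap, 7.14% of the list beside 7.96% of all tested genes with FAP higher, which is no more than the background. SMAD2, its close relative, averaged 46.9 ± 6.37 CPM in FAP libraries and 45.2 ± 2.53 CPM in controls (0.06), and SMAD4, the shared partner, averaged 34.3 ± 5.14 CPM in FAP libraries and 34.95 ± 3.22 CPM in controls (-0.04). SMAD5, of the BMP branch, had 0.22 (edgeR, adjusted p = 0.540).

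Other inhibitors and feedback genes showed no common direction. Of 26 listed, 23 were tested, 11 had positive and 12 negative log2 fold changes, and the median was -0.01. Groups did not overlap for 4 lower genes (17.4%, beside 7.99% of all tested genes) and 1 higher gene (4.35%, beside 7.96%). At an unadjusted p under 0.05, 3 of the 23 passed, beside 9.91% of all tested genes. FST, follistatin, which binds and blocks activin, stood at 20.9, 23.1 and 24.6 CPM in FAP libraries, against 30.1, 31.0 and 34.3 CPM in controls (-0.47, edgeR, adjusted p = 0.180). INHBA and its extracellular antagonist FST thus both lay lower in all 3 FAP libraries. GREM1, a BMP antagonist, stood at 92.2, 103 and 87.2 CPM in FAP libraries, against 132, 103 and 136 CPM in controls (-0.40, edgeR, adjusted p = 0.216). Its separation rested on a near tie of FAP replicate 2 and control replicate 2.

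PMEPA1, SKI, TGIF1, SMURF1 and SMURF2, which act beside SMAD7 and SKIL, had overlapping groups. PMEPA1, a membrane inhibitor that is itself raised by TGF-beta, averaged 144 ± 9.51 CPM in FAP libraries and 151 ± 9.53 CPM in controls (-0.07, edgeR, adjusted p = 0.850). SKI, the relative of SKIL, had -0.01, and the corepressor TGIF1 0.0038. SMURF1 and SMURF2, the ubiquitin ligases that SMAD7 brings to the receptor, had 0.06 and -0.11. For these 4 genes edgeR gave an adjusted p of 0.838 to 0.997. USP11, a deubiquitinase of TGFBR1, was the higher gene whose groups did not overlap (0.27, edgeR, adjusted p = 0.380), and is named after its value was seen.

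Transcripts that TGF-beta raises in many cell types lay in both directions. Of 31 listed, 28 were tested, 15 with positive and 13 with negative log2 fold changes, and the median was 0.02. edgeR called none of them, against 0.224% of all tested genes. At an unadjusted p under 0.05, 5 of the 28 were higher and 7 lower, beside 4.61% and 5.3% of all tested genes. In 10 of the 28 genes (35.7%) every FAP library lay below every control, beside 7.99% of all tested genes, and in 3 (10.7%) every FAP library lay above, beside 7.96%. With any single library left out, 10 to 12 of the 28 lay below, beside 11.9% to 15.3% of all tested genes. Those above then numbered 4 to 7 of the 28, beside 11.8% to 14.9% of all tested genes. They numbered 7 without FAP replicate 3 and 5 without control replicate 1 or control replicate 3. The counts of 4 and 5 of the 28 lay near the share of all tested genes.

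CCN2, connective tissue growth factor, was among the lower genes. It stood at 73.7, 93.0 and 95.9 CPM in FAP libraries, against 108, 111 and 127 CPM in controls (-0.39, SE 0.11, edgeR, adjusted p = 0.216). SPHK1, sphingosine kinase 1, had the smallest p of the lists: 122, 117 and 95.6 CPM in FAP libraries, against 157, 153 and 144 CPM in controls (-0.44, SE 0.11, edgeR, adjusted p = 0.106). Further genes below all controls, named after their values were seen, included TGFBI, TAGLN, IL11, ANGPTL4, PDGFB, CDKN1A and TIMP1, with log2 fold changes from -0.67 to -0.12.

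On the other side stood CDKN2B, a cell cycle inhibitor, and the collagen genes COL3A1 and COL5A1. CDKN2B stood at 11.6, 9.81 and 6.37 CPM in FAP libraries, against 4.93, 4.48 and 6.25 CPM in controls (0.78, SE 0.25, edgeR, adjusted p = 0.294). FAP replicate 3 lay almost level with the highest control. COL3A1 had 0.54 and COL5A1 0.30 (edgeR, adjusted p = 0.276 and 0.326), and both are named after their values were seen. The main fibrillar collagen gene COL1A1 had 0.16 and FN1, fibronectin, 0.15 (edgeR, adjusted p = 0.746 and 0.702), with overlapping groups.

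**Figure D4:**
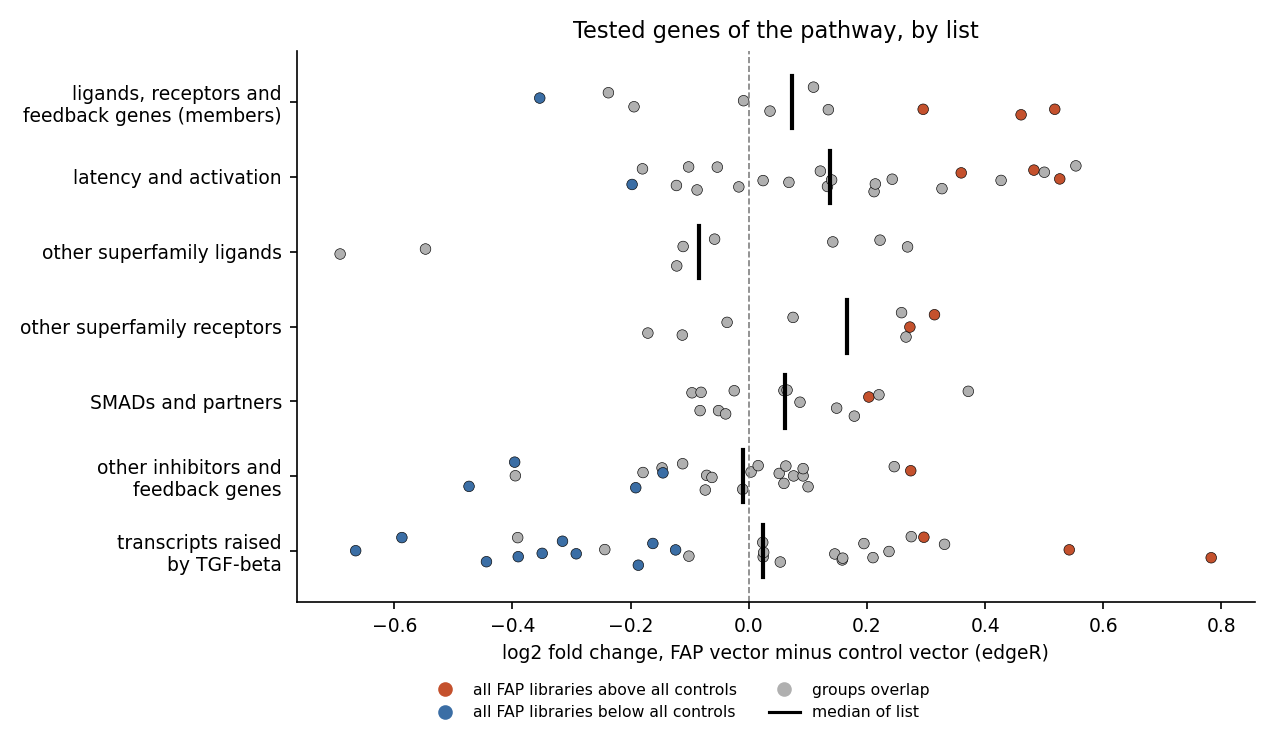
Log2 fold change, FAP vector minus control vector, of the tested genes of each list (x axis, edgeR), 1 point per gene, with the vertical bar at the median of the list. Orange points are genes whose FAP libraries all lay above the controls, blue points those whose FAP libraries all lay below, and grey points overlapped. Transcripts raised by TGF-beta held 10 blue and 3 orange points of 28.

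The 5 genes whose level followed TGFB1 most closely over the 6 libraries were taken by Pearson correlation of log2 CPM among 8531 candidates with a mean of at least 10 CPM. They were ZBED4 (r = 0.990), FOXO3 (0.986), NT5DC2 (0.983), DOCK1 (0.982) and CWF19L1 (0.980). After the group means were removed the correlations were 0.954 to 0.980, and in all 5 genes, as in TGFB1, replicate 1 was the lowest library of each group. NT5DC2 and DOCK1 also lay higher in every FAP library (log2 fold changes 0.30 and 0.29), while ZBED4, FOXO3 and CWF19L1 overlapped between groups. The libraries, their depth and their scaling are shared by all these genes, and the correlations are a description of 6 points.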

How the data were processed

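Raw read counts per gene, not normalized, were deposited by the authors for 6 libraries. HISAT2, featureCounts, Subread and GRCh38 are named per the submitters' processing notes. For their versions, the strand setting, multiple alignments and molecular identifiers: not given in the sources used here. Of 28395 Entrez IDs, 27745 matched a symbol and position in the RefSeq gene table (GRCh38.p14).

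The main fit was made in R 4.3.3 with edgeR 4.0.16. Libraries were scaled by TMM, low genes were removed by filterByExpr (at its settings of 10 counts and a total of 15), and FAP was set against control by a quasi-likelihood F test, two-sided and without covariates. A call is a p below 0.05 after Benjamini-Hochberg adjustment across 13373 genes. The SE is the log2 fold change divided by the square root of F, and 95% intervals use the t distribution of the fit. The common biological coefficient of variation was 11.8%.

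Alternatives were DESeq2 1.42.0, limma-voom 3.58.1, other scalings and filters, thinned counts, FAP left out, a replicate block, and each library left out. A library total covariate, a GC and length correction (mgcv 1.9.3) and the count of separated genes with a library left out were added after the data were seen. The fits were tested on simulated counts. Figures used matplotlib 3.10.9.

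The genes and lists were chosen with earlier results of these data known. The naming rule takes the 10 genes, FAP, 14 pathway genes fixed by name, called list genes, the 2 tested genes of each list with the smallest p, and the 5 genes most correlated with TGFB1. COL1A1, FN1, ITGB6, BMP7, GDF11 and any others outside it were chosen after their values were seen. Transcript lengths are those of the longest GENCODE 29 transcript. 1 gene of the lists stays in the counts and is not reported here by name.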

Additional observations from a re-analysis of the deposited data

How the results depend on the processing

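Of the 10 genes, TGFB1, TGFB3, TGFBR1, INHBA, SMAD7 and SKIL kept their direction under every alternative that gave a value. A minimum of 10 CPM in 3 libraries left no value for TGFB3, TGFBR3, LTBP1 and SMAD7. TGFB2 turned to 0.047 with library totals, 0.0022 with limma-voom, 0.043 without FAP replicate 1 and 0.032 without control replicate 1, and leaving out single libraries gave -0.053 to 0.043. TGFBR3 turned to -0.025 with thinned counts, and leaving out single libraries gave -0.079 to 0.54. TGFBR2 turned to -0.047 with library total as a covariate, and leaving out single libraries gave -0.12 to 0.13. LTBP1 ranged from -0.51 to 0.071, turning without control replicate 1. The cause was not tested.

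Genes called higher and lower, 13 and 17 in the main result, numbered 29 and 53 with DESeq2 and 54 and 98 with no low-count filter. They numbered 7 and 10 with library total as a covariate. Lower calls were 6 with library totals and 10 with thinned counts, and higher calls were 7 with limma-voom. Leaving out single libraries gave 1 to 109 higher and 2 to 139 lower calls, the most without FAP replicate 3. Of the 10 genes, 1 (TGFB1) was called higher with DESeq2, with no low-count filter and with the replicate block. Leaving out single libraries gave 0 to 1 higher and 0 to 1 lower. Of the pathway lists, 1 gene was called with DESeq2, 4 with no low-count filter, 1 with the GC and length correction, and 0 to 6 with single libraries left out.

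With the replicate block, 16 genes were called higher and 28 lower, and TGFB1 had 0.52 (edgeR, adjusted p = 0.0289). Same-numbered libraries deviated together with correlations of -0.07, 0.10 and -0.01, so the numbers were not taken as pairs. LTBP1, TGFB3, TGFBR3 and SMAD7 had the fewest counts, 15 to 104 per library. Counting intervals cover counting error only.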

Other observations

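Most other ligands of the superfamily had too few counts to be tested. Of 28 listed, 8 passed the low-count filter, with a median log2 fold change of -0.08, and none was called by edgeR, passed an unadjusted p under 0.05 or separated the groups. BMP7, a bone morphogenetic protein, averaged 20.7 ± 2.84 CPM in FAP libraries and 22.8 ± 4.004 CPM in controls, and GDF11, a relative of myostatin that signals through SMAD2 and SMAD3, 21.9 ± 4.16 CPM in FAP libraries and 23.0 ± 0.881 CPM in controls (SD, n = 3 each). INHBE, a further activin subunit gene, stood at 2.07, 2.40 and 2.59 CPM in FAP libraries, against 3.84, 2.29 and 5.30 CPM in controls (-0.69, edgeR, adjusted p = 0.542), with 1 control among the FAP values. GDF6 had 0.27 (edgeR, adjusted p = 0.678).

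Among other receptors, 14 of 15 listed had a row and 8 were tested, with a median of 0.17 and none called by edgeR. BMPR2, the type II receptor for BMPs, stood at 24.1, 20.8 and 25.1 CPM in FAP libraries, against 19.5, 18.1 and 18.6 CPM in controls (0.31, edgeR, adjusted p = 0.465), and was the 1 gene of the list with an unadjusted p under 0.05. Groups did not overlap for BMPR2 and for ACVR2B, an activin receptor named after its value was seen (0.27, edgeR, adjusted p = 0.675). These 2 genes are 25% of the list, beside 7.96% of all tested genes with FAP higher. ENG, endoglin, a co-receptor, was at 121, 123 and 121 CPM in FAP libraries, against 119, 152 and 139 CPM in controls (-0.17, edgeR, adjusted p = 0.611). The FAP libraries were nearly level with each other and lay inside the spread of the controls.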
